A study of Rattus norvegicus with 9 samples.

Results

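The transcripts described here are those of 10 genes that mark inhibitory interneurons and other cells that make the transmitter GABA, measured in dendrites severed from cultured rat hippocampal neurons. They are Gad1, Gad2, Slc32a1, Cck, Vip, Sst, Tac1, Dlx1, Calb1 and Calb2, and they were found through every probe set that the platform's gene table pairs with 1 of these genes alone. This gave 11 of the 31042 probe sets and 10 of the 14217 genes on the array, with 2 probe sets for Gad1 and 1 for every other gene. The genes were selected on knowledge of the same array values, their ranks and their differences between pool sizes, so these values are descriptions and carry no test.

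Hippocampal neurons were taken from Sprague-Dawley rat embryos at embryonic day 19 and grown for 14 days in dispersed culture with no treatment. Cell bodies were drawn off with a glass pipette, and each of 9 Affymetrix rat expression arrays received amplified RNA from 1 pool of dendrites gathered from many cells. Pools held 100, 200 or 400 dendrites, with 3 biological replicates per pool size, and animals are not named in the labels, so the spread between replicates may be partly technical. The labels call the cells pyramidal neurons, and by the study's account axons could not be told from dendrites by their shape. The study expects most of the RNA to come from dendrites, with a small axonal share, and allows that RNA of cell bodies may be present.

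Array values are log2 probe set signals, and their medians lay between 7.46 and 7.53 on the 9 arrays. Pairs of arrays correlated at r = 0.68 to 0.88 over probe sets, and replicate 1 of the 400-dendrite pools had the lowest mean correlation with the rest (0.75). The 3′ over 5′ signal difference of the GAPDH control, a sign of how far the RNA was copied, ran from 1.15 to 2.99 log2 units in pools of 100, from 1.95 to 2.50 in pools of 200 and from 0.84 to 2.42 in pools of 400. That of the beta-actin control ran from 0.32 to 1.63, -0.43 to 1.29 and -0.35 to 2.41. These ranges overlapped between pool sizes, and their part in the values below was not tested. Signal depends on how well each probe binds, so a gene is placed by its percentile, the percent of genes on the same array with a signal no higher. Levels of different genes are not compared as amounts of RNA. No detection calls were used, so a low percentile is not a statement that a transcript was absent.

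Interneurons are the minority of hippocampal neurons that release GABA and inhibit their targets. They make GABA from glutamate with the decarboxylases GAD67 and GAD65, encoded by Gad1 and Gad2, and load it into vesicles with the transporter encoded by Slc32a1. Dlx transcription factors direct their formation in the embryonic basal forebrain, and mature subtypes are told apart by neuropeptides and calcium-binding proteins. Several of these genes are not limited to interneurons: Cck is also transcribed in pyramidal cells, and Calb1 in granule cells of the dentate gyrus and in some pyramidal cells.

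Vip and Sst are textbook targets of the activity-regulated factor CREB, and the piece of their RefSeq promoters that holds its binding motif is shown for that reason beside the values of these peptides. Capitals mark the motif TGACGTCA in Sst and the 7 bases TGACGTC that Vip shares with it, each piece being 30 bases of the plus strand of GRCr8, 5′ to 3′.
Vip, chr1:44470372-44470401: gatcaccactgTGACGTCtttcgaggagcc
Sst, chr11:90461537-90461566: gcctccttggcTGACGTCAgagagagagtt
The motif begins at position -97 in Vip and at position 2 in Sst, counted from 0 at the annotated start of the gene. The promoter table held 7 of the 10 genes, all but Cck, Calb1 and Calb2, in windows of 250 bases before and 50 after the start. On either strand TGACGTC was found in Vip and Sst alone among these 7, and in 3.22% of all 33469 promoters, and TGACGTCA, which contains it, in Sst alone and in 1.83% of all. These are matches of letters in a fixed window, and no binding was measured.

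The genes that make and load GABA gave low signals on every array, while the calcium-binding protein gene Calb2 gave a high one on most. The median of the 10 members stood at the 49.1 percentile, beside a median of 49.9 over all 14217 genes, with 5 of the 10 in the upper part of the scale beyond 50. Of these 5, Cck and Dlx1 stood below 50 when each gene took its probe set of highest mean. From the lowest up, the medians over 9 arrays were 11.6 for Slc32a1, 13.7 for Gad1, 15.6 for Gad2, 36.9 for Vip, 46.0 for Tac1, 52.2 for Cck, 55.1 for Dlx1, 64.6 for Sst, 70.1 for Calb1 and 86.7 for Calb2. Calb2 had the highest signal of the 10 on 7 of 9 arrays, and Gad1, Gad2 or Slc32a1 the lowest on 8 of 9. The ranges over arrays overlapped for each pair of neighbours in this order. Compared within arrays, Vip stood above Gad2 on every array, and no other pair of neighbours kept its order throughout.

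**Figure D1:**
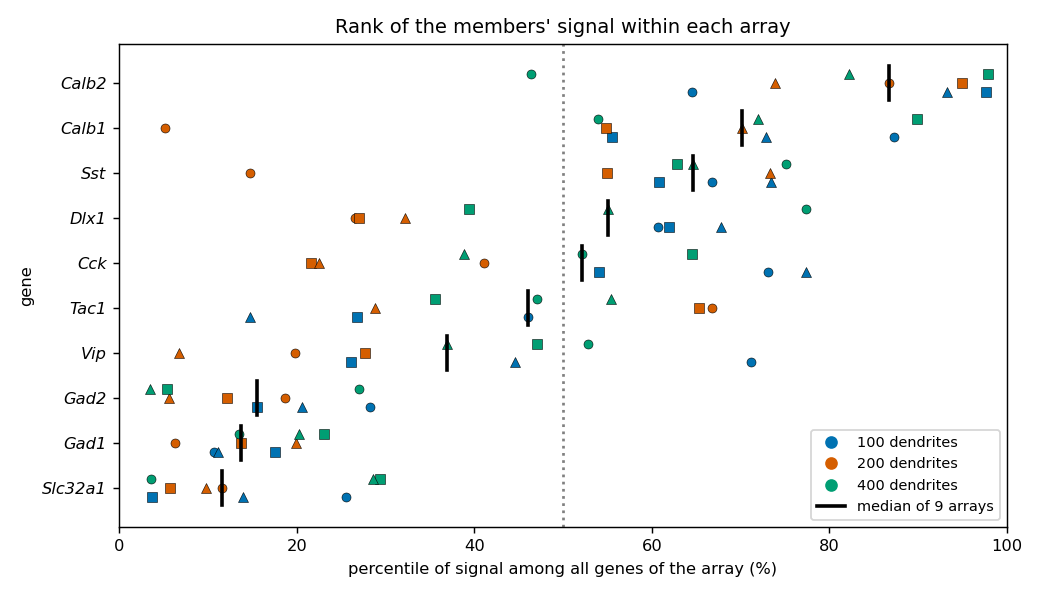
Percentile of each gene's signal among 14217 genes of the same array (horizontal axis, percent), with 1 point per array coloured by dendrites per pool; point shapes are replicate 1 (circle), 2 (square) and 3 (triangle). Black bars are medians of 9 arrays, from 11.6 for Slc32a1 to 86.7 for Calb2, and the dotted line is the 50th percentile, which Gad1, Gad2 and Slc32a1 passed on 0 of 9 arrays.

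Gad1, Gad2 and Slc32a1, the core of the GABA-producing phenotype, stayed between the 3.47 and 29.4 percentiles on all 9 arrays. Gad1 was at 5.97, 6.32 and 6.00 in replicates 1 to 3 of the 100-dendrite pools, at 5.67, 6.11 and 6.44 in pools of 200 and at 6.15, 6.56 and 6.47 in pools of 400. Its mean over all arrays was 6.19 ± 0.29 (SD, n = 9), where the value is the median of its 2 probe sets, whose own SDs were 0.45 and 0.37. The pool sizes overlapped.

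The pair of Gad1 probe sets did not move together. The probe set 1368344_at was lowest on replicate 1 of the 100-dendrite pools (5.10), where 1370760_a_at was at 6.83, close to its highest value of 6.90. Between pools of 200 and 100 dendrites the former differed by 0.37 ± 0.43 log2 units (SE of the limma fit) and the latter by -0.41 ± 0.38, and their median, taken as the value of the gene, by -0.02.

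Gad2, which encodes the form of the enzyme tied to synaptic terminals, was at 6.78, 6.22 and 6.46 in pools of 100, at 6.38, 6.04 and 5.62 in pools of 200 and at 6.76, 5.58 and 5.42 in pools of 400. Its mean was 6.14 ± 0.51 (SD, n = 9), its highest and lowest arrays lay in pools of 100 and 400, and all pool sizes overlapped. Slc32a1 was at 6.67, 5.43 and 6.16 in pools of 100, at 6.02, 5.62 and 5.92 in pools of 200 and at 5.48, 6.83 and 6.83 in pools of 400, with a mean of 6.11 ± 0.56. It too overlapped between pool sizes. In pools of 400, replicate 1 was high for Gad2 and low for Slc32a1, and replicates 2 and 3 were the other way round.

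Dlx1, the homeodomain factor of the forebrain interneuron lineage, separated the 200-dendrite pools from all others. It was at 7.94, 8.01 and 8.24 in pools of 100, at 6.73, 6.75 and 6.95 in pools of 200 and at 8.65, 7.19 and 7.78 in pools of 400. The 3 arrays of 200 dendrites were its 3 lowest, and pools of 100 and 400 overlapped. The difference was -1.25 ± 0.42 log2 units (SE) for 200 against 100 dendrites, from means of 6.81 ± 0.12 and 8.06 ± 0.16 (SD, n = 3 each), and 1.07 ± 0.42 for 400 against 200. Without replicate 1 of the 400-dendrite pools the latter was 0.68. In percentiles, its median was 62.0 in pools of 100, 27.1 in pools of 200 and 55.1 in pools of 400.

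Cck and Vip, peptides of basket cells and of interneurons that contact other interneurons, also had their lowest mean in pools of 200. Cck was at 8.39, 7.73 and 8.65 in pools of 100, at 7.27, 6.53 and 6.56 in pools of 200 and at 7.67, 8.09 and 7.22 in pools of 400. Its pools of 200 lay below all pools of 100, by -1.47 ± 0.42 log2 units (SE), while replicate 1 of 200 and replicate 3 of 400 overlapped. The difference of 400 against 200 dendrites was 0.88 ± 0.42. Without any 1 array the difference of 200 against 100 lay between -1.74 and -1.28.

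Vip was at 8.31, 6.70 and 7.41 in pools of 100, at 6.44, 6.77 and 5.71 in pools of 200 and at 7.70, 7.48 and 7.15 in pools of 400. The 400-dendrite arrays all lay above the 200-dendrite arrays, by 1.13 ± 0.48 log2 units (SE), and replicate 2 of the 100-dendrite pools fell among those of 200. The difference of 200 against 100 dendrites was -1.16 ± 0.48, and -0.75 once replicate 1 of 100 dendrites, the highest array of this gene, was left out. Its median percentile was 44.6, 19.8 and 47.1 in pools of 100, 200 and 400.

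Sst and Calb1 were each low on a single array. Sst, which encodes somatostatin of the interneurons that contact distal dendrites, was at 8.15, 7.97 and 8.47 in pools of 100, at 6.18, 7.77 and 8.44 in pools of 200 and at 8.54, 8.04 and 8.12 in pools of 400. On 8 of 9 arrays it was above the 50th percentile, and replicate 1 of the 200-dendrite pools was the exception. The difference of 200 against 100 dendrites was -0.73 ± 0.53 log2 units (SE), and -0.09 without that array. That of 400 against 200 was 0.77 ± 0.53, and 0.13 without it.

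Calb1, which encodes the calcium buffer calbindin, was at 9.25, 7.77 and 8.44 in pools of 100, at 5.59, 7.77 and 8.31 in pools of 200 and at 7.73, 9.60 and 8.39 in pools of 400. Its range of 4.02 log2 units was the widest of the 10 genes, and replicate 1 of the 200-dendrite pools was again the lowest. Without it the difference of 200 against 100 dendrites was -0.45 in place of -1.27 ± 0.72 (SE), and that of 400 against 200 was 0.54 in place of 1.35 ± 0.72. The same array held the lowest value of 4 of the 10 genes (Gad1, Sst, Dlx1 and Calb1) and the highest of Tac1.

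Tac1, the precursor gene of substance P, had another order. It was at 7.43, 6.73 and 6.21 in pools of 100, at 8.16, 8.13 and 6.82 in pools of 200 and at 7.49, 7.06 and 7.80 in pools of 400. Its highest arrays were replicates 1 and 2 of the 200-dendrite pools, and replicate 3 of these overlapped with the others. Of the 10 genes, Tac1 alone had a higher mean in pools of 200 than of 100, by 0.91 ± 0.49 log2 units (SE).

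Calb2, which encodes calretinin, varied more between replicates than between pool sizes. It was at 8.07, 11.22 and 9.98 in pools of 100, at 9.18, 10.31 and 8.46 in pools of 200 and at 7.47, 11.40 and 8.89 in pools of 400. Replicate 2 was the highest of each pool size, though the labels do not say whether a replicate number links cultures, and all pool sizes overlapped. With a mean of 9.44 ± 1.38 (SD, n = 9), its spread stood at the 98.9 percentile of all genes, whose median SD was 0.55. Calb1 followed at the 96.8 percentile. The difference of 400 against 100 dendrites was -0.50 ± 0.99 log2 units (SE), and it ran from -1.57 to 0.39 when arrays were left out singly. Its sign turned without replicate 2 of 100 dendrites (0.23) and without replicate 1 of 400 dendrites (0.39).

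**Figure D2:**
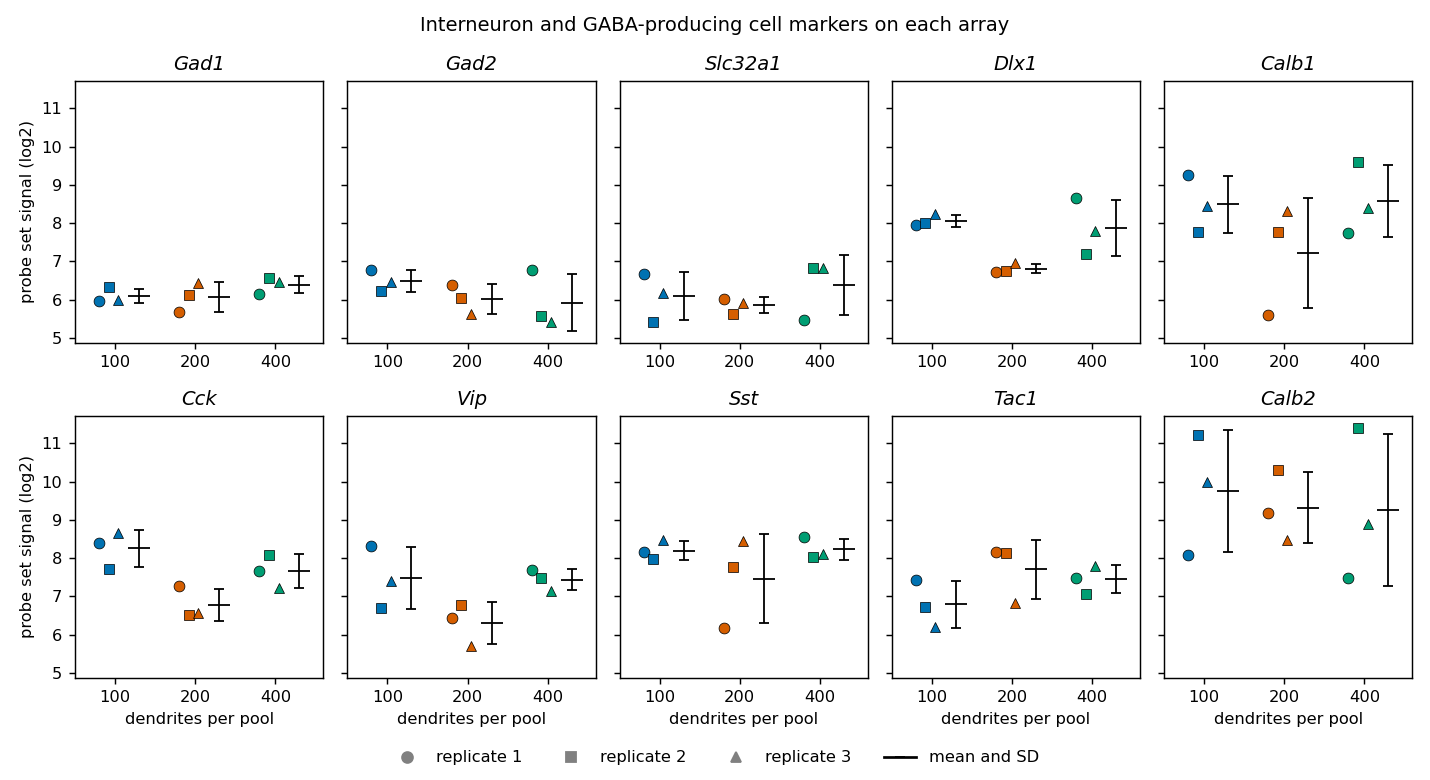
Log2 probe set signal (vertical axis, the same in all panels) of the 10 genes in pools of 100, 200 and 400 dendrites, with 1 point per array shaped by replicate and a bar for the mean and SD of 3 arrays. Dlx1 and Cck lay lower in all pools of 200 than in all pools of 100, and Calb2 ran from 7.47 to 11.40 within pools of 400.

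Over the 3 pool sizes, 9 of the 10 genes had a lower mean in pools of 200 than of 100 dendrites and 1 a higher one, and the median difference, -0.60 log2 units, stood beside 0.00 over all genes. The 9 include Gad1 at -0.02, and leaving out 1 array turned Gad1 (0.09 without replicate 2 of 100 dendrites, 0.18 without replicate 1 of 200), Slc32a1 (0.06 without replicate 1 of 100) and Calb2 (0.29 without replicate 2 of 100) to higher. The median was -0.91 without replicate 2 of 200 dendrites. In pools of 400 against 200, 7 were higher and 3 lower, with a median of 0.65 beside 0.01 over all genes. Without replicate 1 of 200 dendrites this median was 0.33. For 400 against 100 dendrites 5 were higher and 5 lower, with a median of 0.00 beside 0.02. These 3 comparisons share arrays, and the genes were chosen with the contrasts known. In the fit over all probe sets (limma, Benjamini-Hochberg adjusted p under 0.05) 0 of the 11 member probe sets passed in any comparison, as did 0% of 31042. At an unadjusted p under 0.05 there were 0 of 11 for 400 against 100 dendrites beside 2.21% of all probe sets, 3 for 200 against 100 (Vip, Cck and Dlx1) beside 2.87%, and 2 for 400 against 200 (Vip and Dlx1) beside 2.04%. By overlap of arrays, 0 of 10 genes lay wholly apart between 400 and 100 dendrites, beside 3.67% of genes wholly higher and 2.58% wholly lower. Of the 10, 2 (Cck and Dlx1) lay wholly lower in pools of 200 than of 100, beside 3.75% of genes, and 0 wholly higher, beside 4.05%. In pools of 400, 2 (Vip and Dlx1) lay wholly higher than in pools of 200, beside 3.59%, and 0 wholly lower, beside 3.18%. In a pool of RNA, fewer fragments of a cell type and less of a transcript per fragment cannot be told apart.

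By array, the median member stood at the 19.2 to 27.4 percentile in pools of 200 dendrites and at 40.4 to 62.6 on the other 6 arrays. The number of members above the 50th percentile ran from 2, on replicate 1 of the 200-dendrite pools, to 6, on replicate 1 of the 100-dendrite pools. All 3 arrays of 200 dendrites were among the 4 lowest for Cck, Vip and Dlx1, 2 of them for Gad1, Gad2, Slc32a1, Sst and Calb1, and 1 for Tac1 and Calb2. The share of all genes with such an order was not computed, and the members were chosen with the contrasts known, so nothing is read from these counts.

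**Figure D3:**
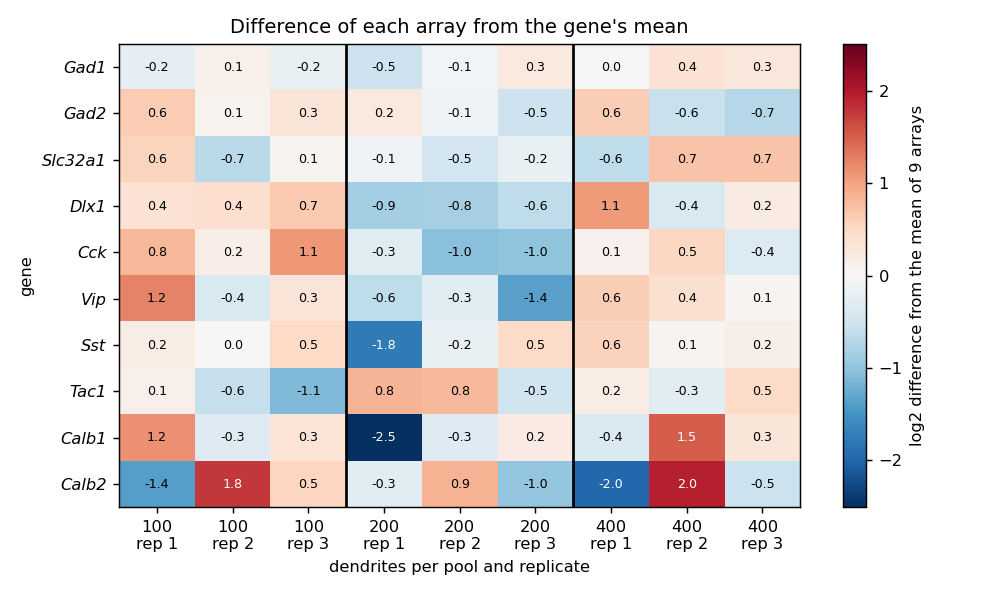
Difference of each array from the mean of 9 arrays for each gene, in log2 units (colour and printed value), with arrays in columns by dendrites per pool and replicate. Blue cells gather for Dlx1, Cck and Vip in pools of 200, while the low values of Sst and Calb1 there lie on replicate 1.

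Of 30 other markers of interneurons, 23 were measured, with a median percentile of 48.5. For 200 against 100 dendrites 13 were higher and 10 lower, with the median at 0.09 log2 units. For 400 against 100 dendrites 16 were higher and 7 lower (median 0.15), and for 400 against 200 dendrites 11 were higher and 12 lower (median -0.02). In limma 0 of their 33 probe sets passed in any comparison (1, 2 and 2 at an unadjusted p under 0.05, in this order). Pvalb, of fast-spiking basket cells, differed most between 200 and 100 dendrites, with a mean of 6.31 ± 0.61 for 200 dendrites against 7.02 ± 0.31 for 100 (SD, n = 3 each). Prox1, also a marker of dentate granule cells, and the growth factor gene Igf1 had the highest percentiles (73.7 and 71.6), and Lamp5, of neurogliaform cells, the lowest (4.93). Nr2f2, a nuclear receptor of caudally derived interneurons, differed most in the comparisons with pools of 400, at 9.29 ± 1.18 there, 7.26 ± 1.25 in pools of 200 and 7.03 ± 1.05 in pools of 100.

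Genes that transport or break down GABA, set the chloride gradient or build the metabotropic receptor and the inhibitory synapse had a median percentile of 74.7, over 10 measured out of 12 listed. Slc12a5, the neuronal chloride exporter that makes GABA inhibitory, stood highest (96.6, mean 10.38 ± 1.30, SD, n = 9), followed by the chloride importer Slc12a2 (81.0), and the GABA transporter Slc6a11 stood lowest (20.4). Slc12a5 was at 9.82 ± 2.07, 11.22 ± 0.60 and 10.10 ± 0.65 in pools of 100, 200 and 400 (SD, n = 3 each), and no other gene of this list differed more between 200 and either other size. Slc6a11 differed most between 400 and 100 dendrites, at 7.48 ± 1.16 and 5.87 ± 0.08. In limma 0 of the 20 probe sets passed in any comparison (1, 0 and 1 at an unadjusted p under 0.05 for 400 against 100, 200 against 100 and 400 against 200).

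The receptors of the 4 peptides had a median percentile of 49.6 over 12 measured genes of 13. Vipr2, a receptor of Vip, stood at 87.9 and Tacr1, the receptor of substance P, at 74.8, while the somatostatin receptor Sstr1 stood at 16.8. Vipr2 was at 8.75 ± 1.04, 9.24 ± 0.25 and 9.79 ± 1.43 in pools of 100, 200 and 400 (SD, n = 3 each). Vipr1, the other Vip receptor, averaged 6.99 ± 0.39 for 200 dendrites against 7.79 ± 0.64 for 400. Sstr3, of the somatostatin receptors, averaged 6.68 ± 1.18 for 100 dendrites against 7.88 ± 0.58 for 200. Of the 12 genes, 9 were higher and 3 lower in pools of 200 than of 100, and 0 of 21 probe sets passed in limma in any comparison (1, 0 and 2 at an unadjusted p under 0.05, in the order above).

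Genes that process peptides and fill dense-core vesicles had a median percentile of 66.9 over 12 measured genes of 13. Cpe, which trims peptide precursors, stood at 99.4 (12.26 ± 0.75, SD, n = 9) and Scg5, a chaperone of a precursor convertase, at 97.0 (10.93 ± 0.24). Pam, which amidates peptides such as those of Cck, Vip and Tac1, was the lowest of the list, at 5.60. Scg2, a granin, differed most between 400 and 100 dendrites (11.21 ± 0.59 and 10.11 ± 0.44, SD, n = 3 each), Scg3 between 200 and 100 (9.67 ± 0.50 and 8.82 ± 0.54) and Chgb between 400 and 200 (7.53 ± 0.87 and 6.90 ± 0.87). In limma 0 of 16 probe sets passed in any comparison (1 at an unadjusted p under 0.05 in each).

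Markers of pyramidal neurons had a median percentile of 72.6 over 16 measured genes, with Neurod2 at 99.9, Nrgn at 99.4 and Tbr1 at 2.44. The log2 of their summed signal ran from 14.42 to 14.63 in pools of 100, from 14.67 to 14.86 in pools of 200 and from 14.48 to 14.85 in pools of 400. The ranges of 100 and 200 dendrites did not overlap. Such a sum is weighted towards the brightest probe sets, here Neurod2 and Nrgn. These were 0.09 and 0.14 log2 units higher for 200 against 100 dendrites, and other genes of the list differed more, in both directions. Gene by gene 9 were higher and 7 lower for 200 against 100 dendrites, with the median at 0.04 log2 units. For the 10 interneuron genes the same sum ran from 11.29 to 11.86, from 10.58 to 11.28 and from 10.95 to 12.21, and it is weighted towards Calb2, the brightest of them on 7 of 9 arrays. For the other interneuron markers it ran from 11.86 to 12.15, from 12.01 to 12.16 and from 12.25 to 12.48, with pools of 400 above the rest. This sum too is weighted towards the brightest genes, among them Nr2f2 in pools of 400 (9.29 ± 1.18). Gene by gene, 11 were higher and 12 lower for 400 against 200 dendrites, and 16 higher and 7 lower for 400 against 100.

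Astrocyte markers, of which S100b (90.1 percentile) and Slc1a3 (86.9) stood highest and Gjb6 (3.02) lowest, had summed log2 signals of 11.76 to 13.07, 11.15 to 12.70 and 11.18 to 12.64 in pools of 100, 200 and 400, and 8 of 13 were lower in pools of 200 than of 100. The sums overlapped between pool sizes for astrocytes and for microglia (12 genes, median percentile 30.4, C1qc and C1qb highest, Tyrobp lowest). They also overlapped for endothelium (9 genes, 52.6, Vwf at 99.8 and Esam at 98.5 highest, Tek lowest) and for fibroblasts and mural cells (10 genes, 29.7, Col1a1 and Pdgfrb highest, Col1a2 lowest). Markers of the oligodendrocyte lineage (13 genes, 55.7, Olig2 and Mag highest, Mobp lowest) ran from 11.46 to 11.66 in pools of 100 and from 11.72 to 11.83 in pools of 200, without overlap, and from 11.32 to 11.99 in pools of 400, with 8 genes higher and 5 lower for 200 against 100 dendrites. The part of other cells in the values of the interneuron genes was not tested. For comparison, the 52 measured genes that mark other organs had their median at 33.7, with Ctrb1 (97.7) and Cela1 (96.7) highest and Amy2a3 (0.27) lowest, and 10 of them stood at or below the highest median of Gad1, Gad2 and Slc32a1 (15.6).

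**Figure D4:**
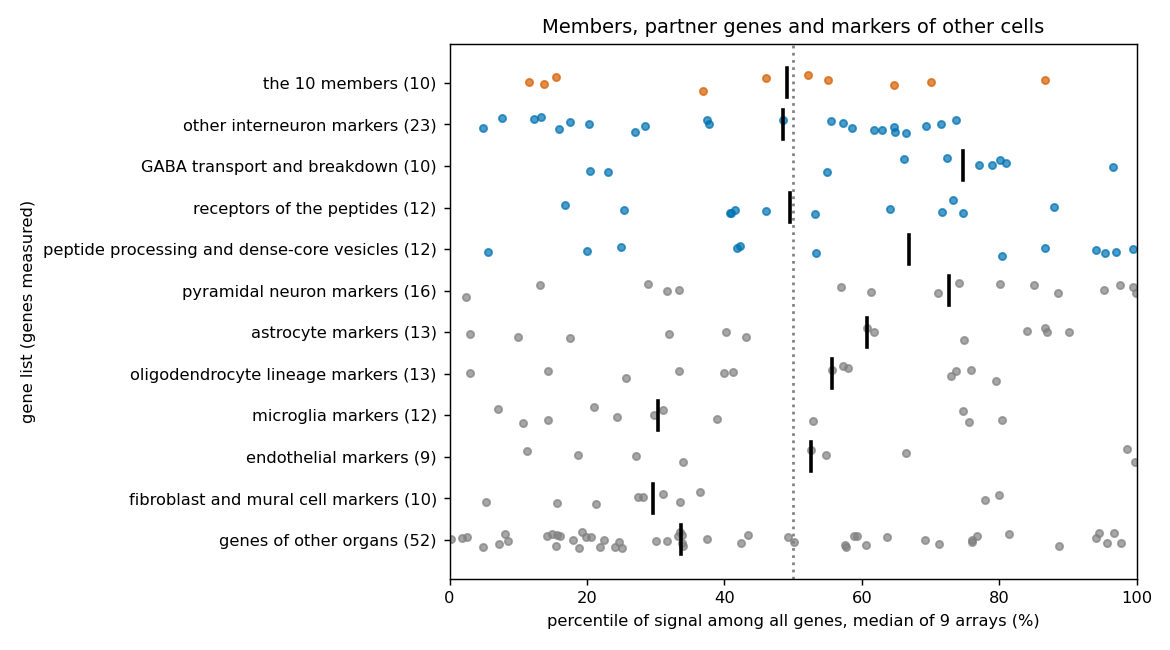
Percentile of signal among all genes (horizontal axis, percent, median of 9 arrays), with 1 point per gene, for the 10 interneuron genes (orange), their partner genes (blue) and markers of other cells and organs (grey). Black bars are list medians, 49.1 for the 10 genes, 74.7 for the list labelled GABA transport and breakdown and 33.7 for genes of other organs. That labelled list also holds chloride transporters and genes of the metabotropic receptor and the inhibitory synapse. The dotted line is the 50th percentile.

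The members did not share 1 profile over the 9 arrays. Over their 45 pairs, Pearson's r had a median of 0.04 and ran from -0.75 for Gad1 with Gad2 to 0.76 for Sst with Calb1, and Cck with Vip gave 0.75. Sst and Calb1 were both far lowest on replicate 1 of the 200-dendrite pools (6.18 and 5.59). Their r leans on that array and was not computed without it. Gad1 enters here and below as the median of its 2 probe sets. These did not move together, so its r depends on which of them is used. The genes most like each member over the 9 arrays were Gabra5 and Akr1a1 for Gad1 (r = 0.94 and 0.93), Cysltr2 and Hepacam for Gad2 (0.94 and 0.93), Lamp3 and Klf6 for Slc32a1 (0.95 and 0.94), and Ranbp3 and Pcbd2 for Dlx1 (0.96 and 0.96). For the peptides they were Retsat and Tmem43 for Cck (0.92 and 0.90), Tnfrsf11b and Dnajb11 for Vip (0.95 and 0.93), Vti1a and Map2k3os for Sst (0.96 and 0.96) and Dbt and Mocos for Tac1 (0.92 and 0.91). For the calcium-binding proteins they were Praf2 and Gramd2b for Calb1 (0.94 and 0.93) and LOC102549552 and Rps23 for Calb2 (0.94 and 0.93). With 9 arrays such values are usual: the best match of a gene had a median r of 0.955 over all 14217 genes. By rank of the arrays (Spearman's rho), Sst gave 0.80 with Vti1a and 0.68 with Map2k3os.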

How the data were processed

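RNA of pooled rat dendrites was amplified and hybridised by the authors to Affymetrix rat expression arrays. The deposited values are log2 signals per probe set, made by the authors with RMA 2.0 as the labels name it, and the centring and percentile scaling of the study's methods are not in them. Of 31099 probe sets, 57 controls were set aside and 31042 tested with no filter. Of these 20826 name 1 gene, 436 several and 9780 none, and 20758 were matched to RefSeq symbols through Entrez IDs. A gene's value is the median of its probe sets.

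Pool sizes were compared with limma 3.58.1 (R 4.3.3, all 9 arrays, two-sided, Benjamini-Hochberg over all probe sets, threshold 0.05). The fit was also run on simulated data with independent noise of equal spread on all arrays. Real arrays need not behave so, and the power to find differences here was not measured. Alternatives were other scalings, the brighter 50% of probe sets, trend and robust variance, the methods' t-test, a replicate block, other summaries per gene and leaving out each array. Descriptions used Python 3.11.15, numpy 2.4.6 and pandas 2.3.3, and figures matplotlib 3.10.9. The number of arrays limits the precision. The members and all gene lists were chosen with earlier results of these data known. Besides the members, the text names the 2 highest and the lowest gene of each list by percentile, the gene of each partner list that differed most between each pair of pool sizes, and the 2 genes most like each member by Pearson's r.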

Additional observations from a re-analysis of the deposited data

How the results depend on the processing

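The count of probe sets passing between pool sizes was 0 in limma for all 3 comparisons and stayed 0 with quantile normalization, median centring and percentile scaling, the brighter 50% of probe sets, trend and robust variance, the methods' t-test and without any 1 array. At an unadjusted p under 0.05 limma had 687, 891 and 634 probe sets for 400 against 100, 200 against 100 and 400 against 200 dendrites, the methods' t-test 800, 1053 and 872, and limma without 1 array 642 to 1097, 802 to 1607 and 577 to 1259, the highest counts being without replicate 1 of the 400-dendrite, replicate 2 of the 100-dendrite and replicate 2 of the 400-dendrite pools. In the brighter 50%, where fewer were tested, it had 330, 394 and 262. With the replicate number as a block it was also 0 in each. The labels do not say whether same-numbered arrays share a culture. Deviations of same-numbered arrays correlated at -0.20 to 0.09, and of differently numbered arrays between pool sizes at -0.19 to 0.22. These values cannot settle whether the numbers pair the samples. The median difference of the 10 genes was 0.65 log2 units for 400 against 200 dendrites and 0.33 to 0.75 without 1 array, lowest without replicate 1 of the 200-dendrite pools. For 200 against 100 dendrites it was -0.91 (without replicate 2 of 200 dendrites) to -0.41, and for 400 against 100, where the main value was 0.00, it was -0.14 to 0.14. The median percentile of the 10 genes was 44.0 to 49.9 without 1 array, and 42.3 when each gene took its probe set of highest mean. Of 120 differences of single members under normalizations and other gene summaries 0 changed sign, and of 270 without 1 array 20 did. Part of the 120 could not change, because other gene summaries leave a gene with 1 probe set as it was. For Gad1 the mean of its 2 probe sets equals their median. The difference of Gad1 for 200 against 100 dendrites was -0.41 with the probe set of highest mean in place of -0.02. Its other probe set, 1368344_at, which was not among the settings, gave the opposite sign (0.37).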
